A study of Mus musculus with 8 samples.

Results

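Cytosolic aminoacyl-tRNA synthetases and genes of the amino-acid response were examined in messenger RNA of sorted CD8+ T cells of the mouse spleen. The set held 43 of the 29426 gene symbols in the deposited count table: 20 synthetases, 7 amino-acid transporters, 8 genes of amino-acid and one-carbon synthesis, and 8 regulators around the transcription factor ATF4. The genes were chosen by symbol and function at a time when their levels by subset and genotype in these libraries were known. Their counts and fold changes therefore describe single genes and do not test the set as a whole. Of the 43, 41 passed the filter on low counts and were tested; the cystine transporter gene Slc7a11 and the glutathione-degrading enzyme gene Chac1 were not.

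The 8 libraries fell into 4 groups of 2, labelled mCre-MP, WT-MP, mCre-TN and WT-TN. The comparisons asked how mCre libraries differed from WT libraries within a subset, and how MP cells differed from TN cells within a genotype. WT and mCre are the genotype labels; the series title places miR-29 and Cre side by side, but the allele, the promoter of the Cre and the cells in which it acts are not named by the titles or the design text. TN and MP are the subset labels (the design text writes VM beside TN), and the cells were bead-enriched and then sorted by flow cytometry with stains for CD8, CD4, CD44, CD122 and viability. No treatment is named, the spleens were from adult or neonatal mice with no age given per library, and nothing states that the 2 libraries of a group came from separate mice. P-values then measure the spread between these libraries, which may be technical.

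Aminoacyl-tRNA synthetases charge each tRNA with its amino acid, and the cytosolic enzymes serve the ribosomes outside mitochondria. When uncharged tRNA accumulates, the kinase GCN2 phosphorylates the initiation factor eIF2 alpha, which slows general translation and lets the messenger RNA of ATF4 be translated. ATF4, with partners of the C/EBP family, binds C/EBP-ATF response elements and switches on genes for synthetases, amino-acid transporters and amino-acid synthesis. T cells depend on this machinery when they grow, and amino-acid transporters such as Slc7a5 are needed for their expansion.

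Total counts per library ranged from 13479586 to 30057658, and 14834 to 15722 genes were detected. In each group the 2 libraries differed by more than sampling noise (chi-square per degree of freedom 4.22 to 6.31). The summed level of Cd3e, Cd8a and Cd8b1 was 3352 to 3709 CPM (counts scaled to the library's total count) over the 8 libraries, and Cd4 had 0 to 9 counts. The sort markers Cd44 and Il2rb, which encodes CD122, summed to 1228 to 1524 CPM in MP libraries and 197 to 221 CPM in TN libraries. In bulk samples such as these, fewer cells of a type and less RNA per cell cannot be told apart.

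The promoters were searched for the core of the C/EBP-ATF response element, TGATGNAA on either strand, in the stretch from 250 bases before to 50 bases after each annotated RefSeq start (GRCm38.p6). Of the 43 genes, 34 had a promoter in the table and 11 of them (32.4%) held the core. Of the tested genes with a promoter, 267 of 9514 (2.81%) held it, and 1219 of 27025 genes with any promoter entry did (4.51%). Members were also matched to promoters by synonym, whereas other tested genes were matched by symbol alone. Several members are known as ATF4 targets for just this element, so the share is not independent of how the set was chosen. By role the core was found in 5 of 13 synthetases, 2 of 5 transporters, 2 of 8 synthesis genes and 2 of 8 regulators. The E-box CACGTG, searched likewise and not overlapping the core, was found in 5 of 34 members (14.7%), against 1102 of 9514 tested genes (11.6%). A match describes letters and is not a measured binding site.

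The windows below surround the core in several members whose values are given later, so that the element can be read beside the expression. Each runs 5′ to 3′ on the gene's own strand for 30 bases, with the match in capitals; a match that ends in CATCA is the core read on the opposite strand.
Asns, chr6:7693214-7693243, minus strand: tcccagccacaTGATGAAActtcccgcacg
Aars, chr8:111033840-111033869, plus strand: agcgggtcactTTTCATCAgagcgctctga
Iars, chr13:49682126-49682155, plus strand: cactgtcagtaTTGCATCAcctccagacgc
Yars, chr4:129189895-129189924, plus strand: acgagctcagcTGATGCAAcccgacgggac
Tars, chr15:11399655-11399684, minus strand: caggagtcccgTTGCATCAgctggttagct
Slc1a4, chr11:20332699-20332728, minus strand: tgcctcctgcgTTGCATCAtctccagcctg
Trib3, chr2:152344028-152344057, minus strand: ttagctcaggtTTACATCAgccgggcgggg
Chac1, chr2:119351038-119351067, plus strand: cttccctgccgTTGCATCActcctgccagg
The core was in the window of 3 of the 8 members with a promoter entry that were called higher in mCre in at least 1 subset (Asns, Aars and Iars) and of 8 of the 26 other members with one. Aars held a second match, 112 bases before its start, that is not shown. Cars, Wars, Lars, Nars and Slc7a5 had no entry in the promoter table.

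Of the 41 genes tested, 11 were higher and 0 lower in mCre than in WT among MP cells, and 11 were higher and 1 lower among TN cells. Calls were made where edgeR's quasi-likelihood test gave an adjusted p under 0.05, with Benjamini-Hochberg adjustment over all 12313 genes tested. Of all genes, 2.08% were called higher and 1.97% lower in mCre among MP cells, and 1.55% higher and 1.92% lower among TN cells. The median log2 fold change (mCre over WT) over the 41 genes was 0.17 in MP and 0.10 in TN, with 37 and 33 values above 0. Over all genes the medians were 0.0004 and -0.001. Beside the 0 called lower in MP, 2 genes were lower at an unadjusted p under 0.05, and DESeq2 and limma-voom also called 0. The genes called in both subsets were 6 synthetases (those for cysteine, alanine, tryptophan, methionine, isoleucine and leucine), the transporters Slc7a5 and Slc7a1, and the asparagine synthetase Asns. These 9 were 9 of the 11 called higher in MP and 9 of the 11 called higher in TN, comparisons that have no library in common. The share of all genes called higher in both subsets is not given, and the members were chosen with these levels known. Their overlap is therefore a description and not support. Both comparisons came from the same fit, and nothing states whether the MP and TN libraries of a genotype came from separate mice.

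**Figure D1:**
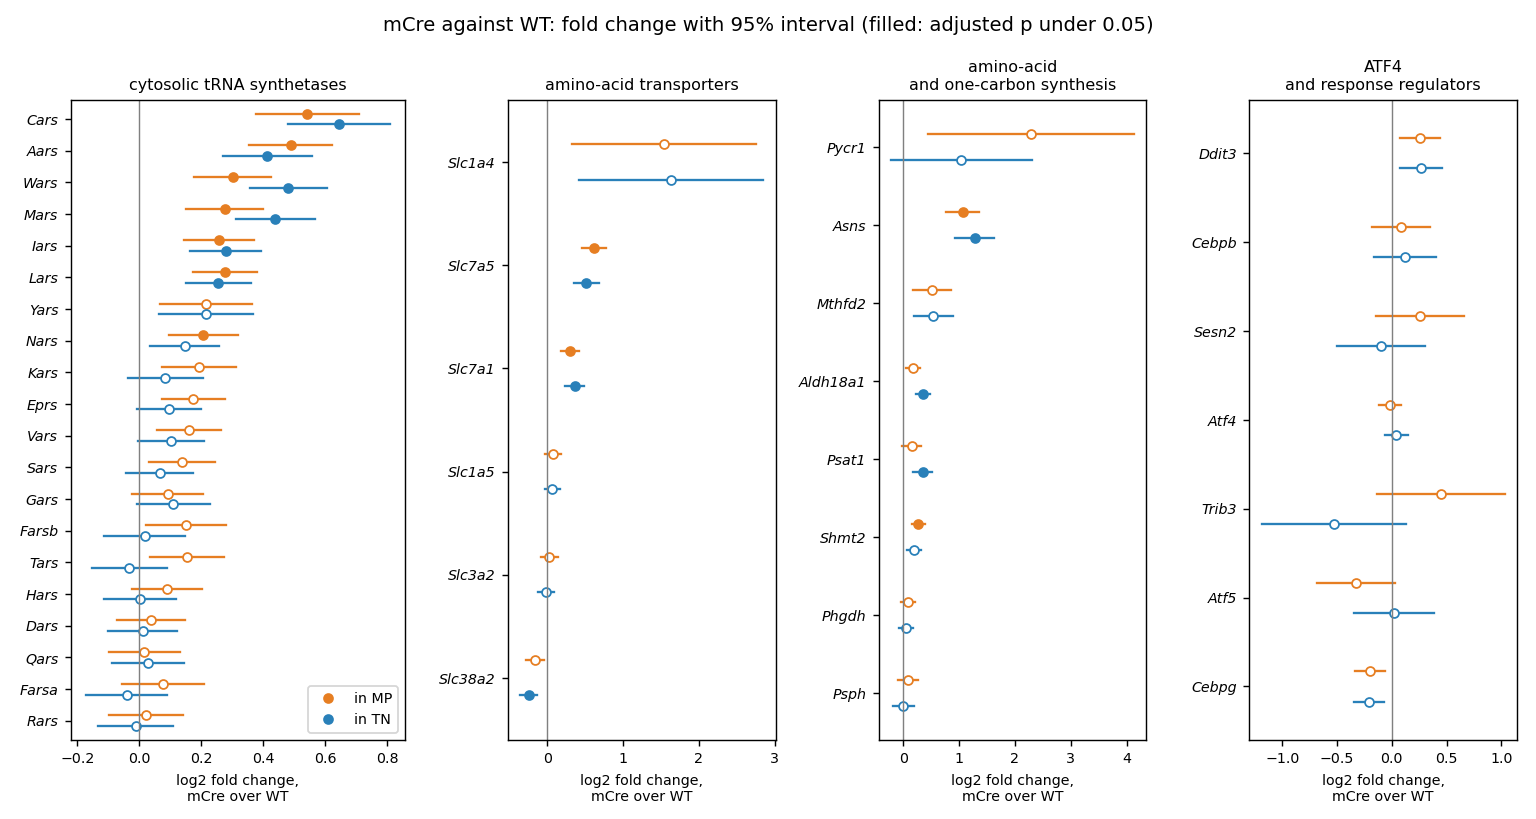
Log2 fold change of mCre over WT for the 41 tested genes, by role, in MP cells (orange) and TN cells (blue), with 95% intervals from the fit; filled points are genes with an adjusted p under 0.05. The 6 synthetases at the top of their panel, Slc7a5, Slc7a1 and Asns are filled in both subsets, and no regulator is filled.

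Among the synthetases, 7 of 20 were higher in mCre among MP cells and 6 of 20 among TN cells, and 0 were lower in either. The 20 log2 fold changes were all above 0 in MP, and 17 of 20 were in TN. At an unadjusted p under 0.05 there were 14 and 8 genes, and DESeq2 and limma-voom both called 7 and 6 higher and 0 lower. Of all 12313 genes tested, 2132 in MP and 2090 in TN had an unadjusted p under 0.05 in either direction. EdgeR called 2.08% and 1.55% of all genes higher in mCre.

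Cars, the cysteinyl-tRNA synthetase gene (chr7:143557230-143600090, minus strand, GRCm38), had the largest difference of the 20. It had 41.6 and 39.1 CPM in mCre-MP, against 26.9 and 28.5 CPM in WT-MP. In TN cells it had 48.6 and 54.3 CPM in mCre-TN, against 32.6 and 32.4 CPM in WT-TN. Every mCre library was above every WT library. Cars exons overlap those of Gm15580 on the opposite strand, and the strand setting of the counting is not known. The log2 fold change was 0.54 ± 0.08 in MP (SE, adjusted p = 0.0003375 by edgeR) and 0.64 ± 0.08 in TN (adjusted p = 9.365e-05).

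Aars, which charges tRNA with alanine (chr8:111033144-111057664, plus strand), had 97.3 and 89.6 CPM in mCre-MP, against 64.4 and 68.8 CPM in WT-MP, and 65.3 and 72.2 CPM in mCre-TN, against 49.9 and 51.9 CPM in WT-TN. The genotypes were separate within each subset but not across subsets, since the mCre-TN and WT-MP levels overlapped. It was higher in mCre by log2 0.49 ± 0.06 in MP (adjusted p = 0.0001264 by edgeR) and 0.41 ± 0.07 in TN (adjusted p = 0.001527). Aars exons overlap those of Exosc6 on the same strand, so that reads from the shared bases may belong to either gene.

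Wars, the tryptophanyl-tRNA synthetase gene (chr12:108860030-108894174, minus strand), had 93.7 and 93.0 CPM in mCre-MP, against 75.6 and 76.1 CPM in WT-MP, and 105.7 and 117.2 CPM in mCre-TN, against 81.5 and 76.6 CPM in WT-TN. In human cells this enzyme is also known as an interferon-inducible gene product. The log2 fold change was 0.30 ± 0.06 in MP and 0.48 ± 0.06 in TN (adjusted p = 0.005084 and 0.0001091 by edgeR).

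Mars, the methionyl-tRNA synthetase gene (chr10:127296221-127311786, minus strand), had 98.9 and 93.6 CPM in mCre-MP, against 77.0 and 82.1 CPM in WT-MP, and 93.3 and 102.3 CPM in mCre-TN, against 70.1 and 72.3 CPM in WT-TN. All mCre libraries were again above all WT libraries. Its last bases overlap exons of Ddit3 on the opposite strand, and no source used here gives the strand setting of the counting. The log2 fold change was 0.28 ± 0.06 in MP (adjusted p = 0.01043 by edgeR) and 0.44 ± 0.06 in TN (adjusted p = 0.0002902). The MP call was lost without mCre-MP replicate 1 (adjusted p = 0.1282) or WT-MP replicate 1 (adjusted p = 0.1455).

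Iars, for isoleucine (chr13:49682100-49734267, plus strand), had 120.4 and 111.4 CPM in mCre-MP, against 98.3 and 95.7 CPM in WT-MP, and 124.2 and 131.0 CPM in mCre-TN, against 103.9 and 104.1 CPM in WT-TN. Lars, for leucine (chr18:42202298-42262194, minus strand), had 139.6 and 134.3 CPM in mCre-MP, against 112.9 and 113.4 CPM in WT-MP, and 138.4 and 140.4 CPM in mCre-TN, against 115.7 and 115.6 CPM in WT-TN. Both enzymes are parts of the multisynthetase complex and charge branched-chain amino acids, and neither gene's genotypes overlapped. The log2 fold changes of Iars were 0.26 ± 0.05 in MP and 0.28 ± 0.05 in TN (adjusted p = 0.008776 and 0.006158 by edgeR), and those of Lars 0.28 ± 0.05 and 0.25 ± 0.05 (adjusted p = 0.002401 and 0.006158). Without mCre-TN replicate 2 the TN calls of Iars and Lars were lost (adjusted p = 0.09432 and 0.06233), and without mCre-MP replicate 1 the MP calls were lost (adjusted p = 0.1748 and 0.05184). The MP call of Iars was lost as well without WT-MP replicate 2 (adjusted p = 0.1231).

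Nars, for asparagine, was called in MP cells alone, with 197.6 and 196.7 CPM in mCre-MP, against 167.2 and 174.9 CPM in WT-MP, and 183.7 and 197.1 CPM in mCre-TN, against 165.9 and 174.2 CPM in WT-TN. All 4 mCre libraries were above all 4 WT libraries, although the TN difference did not pass (log2 fold change 0.21 and 0.15, adjusted p = 0.03179 in MP and 0.1487 in TN by edgeR). The MP call was lost when any 1 of the 4 MP libraries was left out (adjusted p up to 0.2385). Yars, Eprs and Sars, for tyrosine, for glutamate with proline, and for serine, also had all 4 mCre libraries above all 4 WT libraries without a call. Their log2 fold changes were 0.22, 0.17 and 0.14 in MP and 0.22, 0.10 and 0.07 in TN. At the other end of the class, Rars, Qars and Dars had genotype log2 fold changes between -0.01 and 0.04 in both subsets.

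The genotype difference thus covered some of the enzymes: over the 41 genes, 17 had all 4 mCre libraries above all 4 WT libraries and 1 (Cebpg) had them below. Of all tested genes, 4.02% were above and 2.75% below in this way. The 17 were 9 synthetases (Cars, Wars, Mars, Iars, Lars, Yars, Nars, Eprs and Sars), the transporters Slc1a4, Slc7a5 and Slc7a1, and Asns, Mthfd2, Psat1, Shmt2 and Aldh18a1.

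**Figure D2:**
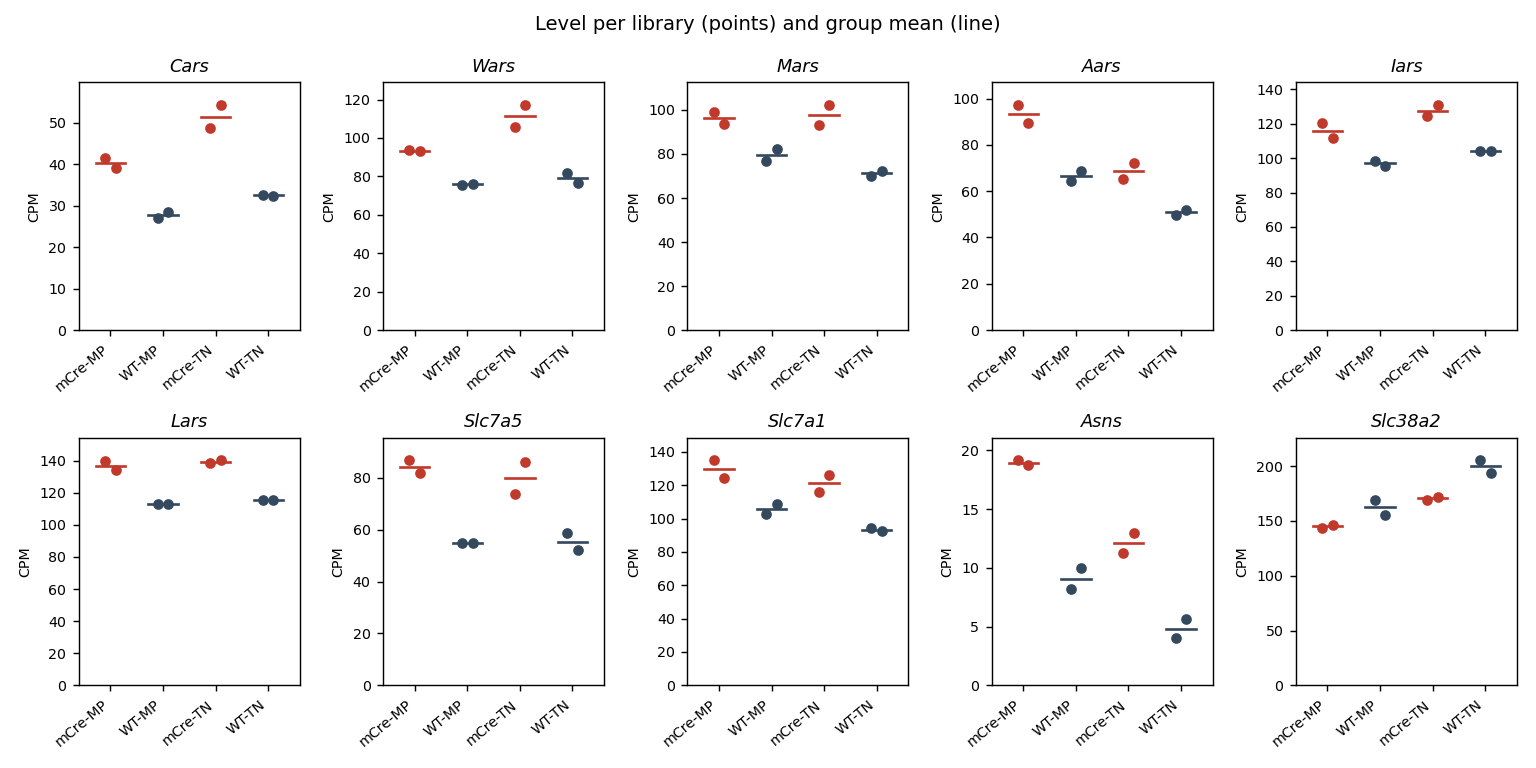
CPM per library (points, 2 per group) and group mean (line) for the 9 genes called higher in mCre in both subsets and for Slc38a2, called lower in mCre among TN cells; mCre groups are red and WT groups dark blue. In each subset both mCre points lie above both WT points for the 9 genes, and Asns also lies higher in MP than in TN within each genotype.

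Of the 6 transporters tested, 2 were higher in mCre in both subsets. Over all genes, 2.08% were called higher in mCre in MP and 1.55% in TN. Slc7a5, the large neutral amino-acid transporter (chr8:121881150-121907694, minus strand), had 86.9 and 81.9 CPM in mCre-MP, against 55.0 and 55.1 CPM in WT-MP, and 73.9 and 86.3 CPM in mCre-TN, against 58.8 and 52.2 CPM in WT-TN. It brings in leucine and other large amino acids in a complex with Slc3a2, the CD98 heavy chain. Slc7a5 was higher in mCre by log2 0.62 ± 0.07 in MP and 0.52 ± 0.08 in TN (adjusted p = 8.944e-05 and 0.0007513 by edgeR). Its partner Slc3a2 had 132.5 and 131.8 CPM in mCre-MP, against 129.3 and 130 CPM in WT-MP, and 148.1 and 137.8 CPM in mCre-TN, against 141.8 and 143.8 CPM in WT-TN, with intervals of the log2 fold change of -0.08 to 0.14 in MP and -0.12 to 0.10 in TN.

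Slc7a1, a carrier of arginine and other cationic amino acids (chr5:148327410-148399904, minus strand), had 135.1 and 124.4 CPM in mCre-MP, against 102.7 and 108.6 CPM in WT-MP, and 116.0 and 126.3 CPM in mCre-TN, against 94.1 and 92.6 CPM in WT-TN. The log2 fold change was 0.30 ± 0.06 in MP and 0.36 ± 0.06 in TN (adjusted p = 0.004769 and 0.00143 by edgeR), and the MP call was lost without mCre-MP replicate 1 or WT-MP replicate 1 (adjusted p up to 0.1061). Slc38a2, a neutral amino-acid carrier known for its induction by amino-acid shortage (chr15:96687392-96699730, minus strand), went the other way. It had 143.6 and 146.4 CPM in mCre-MP, against 168.7 and 155.8 CPM in WT-MP, and 169.4 and 171.6 CPM in mCre-TN, against 205.5 and 193.9 CPM in WT-TN. Its log2 fold change was -0.24 ± 0.05 in TN (adjusted p = 0.0149 by edgeR) and -0.16 in MP (adjusted p = 0.1105). The TN call was lost without mCre-TN replicate 1, mCre-TN replicate 2 or WT-TN replicate 1 (adjusted p up to 0.11).

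The remaining transporters were not called between genotypes. Slc1a4, a carrier of alanine, serine and cysteine, was low, with 4.14 and 2.56 CPM in mCre-MP, against 0.428 and 1.87 CPM in WT-MP, and 3.66 and 4.77 CPM in mCre-TN, against 0.964 and 1.61 CPM in WT-TN. The mCre and WT libraries did not overlap, but the 95% interval of the log2 fold change was wide, from 0.33 to 2.75 in MP and from 0.42 to 2.85 in TN (adjusted p = 0.1731 and 0.1544 by edgeR). Slc1a5, the main glutamine carrier, had log2 fold changes of 0.08 in MP and 0.07 in TN. Slc7a11 had 0 to 4 counts in each library.

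All 8 synthesis genes had positive log2 fold changes in both subsets (medians 0.22 in MP and 0.35 in TN), and 2 were called in MP and 3 in TN. Over all genes, 2.08% were called higher in mCre in MP and 1.55% in TN. Asns, which makes asparagine from aspartate and glutamine and is a textbook ATF4 target (chr6:7675169-7693254, minus strand), showed the largest called difference of the whole set. It had 19.2 and 18.8 CPM in mCre-MP, against 8.17 and 9.96 CPM in WT-MP, and 11.2 and 13 CPM in mCre-TN, against 4.01 and 5.65 CPM in WT-TN. Even the lowest mCre library was above the highest WT library. The fold change was 2.10 in MP and 2.43 in TN (log2 1.07 ± 0.14 and 1.28 ± 0.17, adjusted p = 0.0001264 and 0.0001524 by edgeR).

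Psat1, an enzyme of serine synthesis, had 40.2 and 38.3 CPM in mCre-MP, against 37.4 and 33.4 CPM in WT-MP, and 40.6 and 44.2 CPM in mCre-TN, against 31.2 and 34.4 CPM in WT-TN. Aldh18a1, which starts proline synthesis from glutamate, had 82.7 and 88.3 CPM in mCre-MP, against 78.3 and 74.0 CPM in WT-MP, and 90.0 and 96.7 CPM in mCre-TN, against 71.9 and 73.1 CPM in WT-TN. Both were called in TN with a log2 fold change of 0.35 (adjusted p = 0.02424 for Psat1 and 0.002299 for Aldh18a1 by edgeR). In MP, where neither was called, their log2 fold changes were 0.15 and 0.17. The Psat1 call was lost without mCre-TN replicate 2 or WT-TN replicate 1 and with limma-voom (adjusted p up to 0.2027).

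Shmt2, the mitochondrial enzyme that splits serine into glycine and a one-carbon unit, had 138.1 and 131.3 CPM in mCre-MP, against 110.7 and 112.4 CPM in WT-MP, and 138.4 and 146.5 CPM in mCre-TN, against 129.5 and 117.8 CPM in WT-TN. It was called in MP (log2 fold change 0.27 ± 0.06, adjusted p = 0.00782 by edgeR) and not in TN (0.19, adjusted p = 0.07077). Shmt2 exons overlap those of Ndufa4l2 on the opposite strand. The MP call was lost without mCre-MP replicate 1, WT-MP replicate 1 or WT-MP replicate 2 (adjusted p up to 0.1096). Mthfd2, the next enzyme of the mitochondrial folate pathway, had 57.6 and 66.6 CPM in mCre-MP, against 42.5 and 44.7 CPM in WT-MP, and 56.7 and 75.0 CPM in mCre-TN, against 42.5 and 46.2 CPM in WT-TN. Its libraries did not overlap between genotypes, yet with log2 fold changes of 0.52 and 0.54 it did not pass (adjusted p = 0.1187 and 0.1181 by edgeR). Phgdh and Psph, at the first and last steps of serine synthesis, had log2 fold changes of 0.00 to 0.09, and neither was called. The proline enzyme gene Pycr1 had 4 and 11 counts in mCre-MP, against 1 and 2 in WT-MP, and 18 and 17 counts in mCre-TN, against 5 and 6 in WT-TN. Its log2 fold change was 2.29 in MP (95% interval 0.44 to 4.13, adjusted p = 0.1714 by edgeR) and 1.04 in TN (-0.22 to 2.31, adjusted p = 0.3993).

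None of the 7 regulators tested was called between genotypes, by edgeR, DESeq2 or limma-voom. In each subset 2 had an unadjusted p under 0.05, against 2132 in MP and 2090 in TN of all 12313 genes. Over all genes, edgeR called 2.08% higher and 1.97% lower in MP, and 1.55% higher and 1.92% lower in TN. With so few regulators, 0 of 7 is near that share. Atf4 itself (chr15:80255184-80257541, plus strand) had 211.0 and 213.9 CPM in mCre-MP, against 213.6 and 216.3 CPM in WT-MP, and 212.0 and 204.1 CPM in mCre-TN, against 196.9 and 203.2 CPM in WT-TN. ATF4 is known to be controlled largely at translation, which these libraries did not measure. The 95% interval of its log2 fold change was -0.12 to 0.09 in MP and -0.06 to 0.14 in TN. Ddit3, the C/EBP factor CHOP, had 28.4 and 29.6 CPM in mCre-MP, against 23.9 and 24.8 CPM in WT-MP, and 25.4 and 24.6 CPM in mCre-TN, against 19.4 and 21.6 CPM in WT-TN. Its log2 fold changes of 0.26 and 0.27 did not pass (adjusted p = 0.1093 and 0.1199 by edgeR).

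Trib3, a pseudokinase induced by ATF4 and CHOP, had 4.20 and 2.93 CPM in mCre-MP, against 2.22 and 2.97 CPM in WT-MP, and 1.33 and 2.07 CPM in mCre-TN, against 2.37 and 2.37 CPM in WT-TN. Its direction differed between subsets and neither difference passed. Cebpg, a C/EBP partner of ATF4, had 45.8 to 49.5 CPM over the 4 mCre libraries and 54.0 to 55.7 CPM over the 4 WT libraries. Its log2 fold changes of -0.20 in MP and -0.21 in TN did not pass (adjusted p = 0.1063 and 0.09323 by edgeR). Cebpg exons overlap those of Gm44836 on the same strand and Gm45095 on the opposite strand, so reads from shared bases may belong to another gene. Cebpb, Atf5 and Sesn2 had 95% intervals that held 0 in both subsets, and Chac1 had 8 and 4 counts in mCre-MP, against 0 and 1 in WT-MP, with 3 and 0 counts in mCre-TN, against 0 and 1 in WT-TN.

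**Figure D3:**
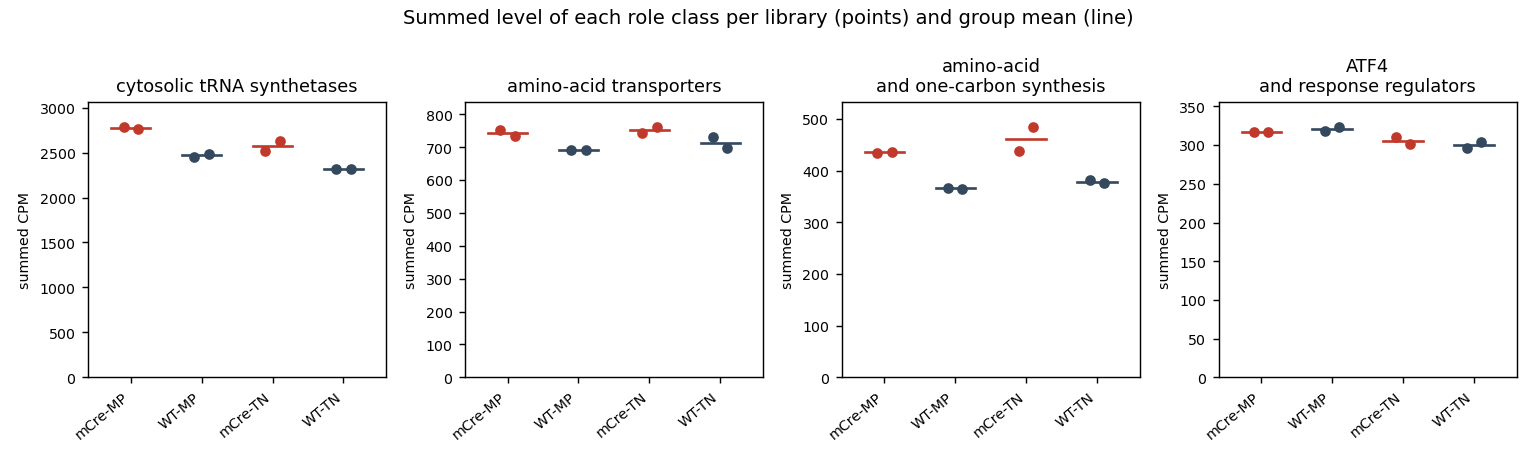
Summed CPM of each role class per library (points) and group mean (line), with mCre groups in red and WT groups in dark blue; sums are led by the most abundant genes. Synthetase sums run from 2516 to 2782 CPM in mCre libraries and from 2314 to 2489 CPM in WT libraries.

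The summed level showed the same classes. Synthetases summed to 2760 and 2782 CPM in mCre-MP, against 2454 to 2489 CPM in WT-MP, and to 2516 to 2625 CPM in mCre-TN, against 2314 to 2322 CPM in WT-TN. Synthesis genes summed to 435 to 437 CPM in mCre-MP, against 366 CPM in both WT-MP libraries, and to 438 to 484 CPM in mCre-TN, against 376 to 381 CPM in WT-TN. Transporters summed to 736 to 753 CPM in mCre-MP, against 691 CPM in both WT-MP libraries, and to 745 to 761 CPM in mCre-TN, against 697 to 730 CPM in WT-TN. For regulators the sums were 317 CPM in both mCre-MP libraries, against 318 to 323 CPM in WT-MP, and 301 to 311 CPM in mCre-TN, against 297 to 304 CPM in WT-TN. Regulator sums overlapped between genotypes in TN cells and were slightly lower in mCre among MP cells, while the sums of the other 3 classes were higher in mCre in both subsets.

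Markers of other cells differed between genotypes in some lists, by summed levels that 1 gene often led. The erythroid and platelet list, with 3 of 5 genes tested (Hbb-bs, Hba-a1 and Alas2) and Pf4 and Ppbp at 0 or 1 count, summed to 19.2 to 25.6 CPM in mCre-MP, against 9.87 to 16.9 CPM in WT-MP, and to 21.3 to 39.1 CPM in mCre-TN, against 16.8 to 17.8 CPM in WT-TN. Its 3 genes were not called by edgeR, DESeq2 or limma-voom, and 2 had an unadjusted p under 0.05 in each subset. The globin genes have near-identical copies between which reads may be split. The myeloid list, with 5 of 6 genes tested, summed to 17.8 to 19.2 CPM in mCre-MP, against 19.8 to 26.6 CPM in WT-MP, and to 17.3 to 17.8 CPM in mCre-TN, against 20.3 to 25.6 CPM in WT-TN. Of its 5 tested genes 3 were lower in mCre in MP and 4 in TN by the sign of the fold change, with 3 and 1 at an unadjusted p under 0.05. Csf1r was called lower in mCre among TN cells (log2 fold change -1.45, adjusted p = 0.04622 by edgeR) and not among MP cells (-1.19, adjusted p = 0.07478). For this list DESeq2 called 1 gene lower in each subset and limma-voom called 0, and S100a8 was at 0 in 6 of the 8 libraries. The natural killer cell list summed to 184 to 207 CPM in mCre-MP, against 216 to 228 CPM in WT-MP, and to 31.4 to 38.6 CPM in mCre-TN, against 43.3 to 50.2 CPM in WT-TN. Nearly all of it was Eomes, a transcription factor that memory CD8+ T cells also express, with 204.6 and 180.7 CPM in mCre-MP, against 212.5 and 223.7 CPM in WT-MP. Ncr1, Klrb1c and Klra8 had 0 counts in all 4 TN libraries and at most 2.74 CPM in an MP library, so the TN values are those of Eomes alone. None of the 4 was called between genotypes by edgeR or limma-voom, with 1 at an unadjusted p under 0.05 in each subset, and DESeq2 called 1 lower in TN. Of the list for CD4 and regulatory T cells, Zbtb7b had 16.1 and 14.8 CPM in mCre-MP, against 21.0 and 18.1 CPM in WT-MP, while Foxp3 had 1.14 and 1.02 CPM in mCre-MP, against 0.513 and 0.868 CPM in WT-MP. The dendritic cell list was led by Itgax, with 29.8 and 31.1 CPM in mCre-MP, against 32.8 and 34.5 CPM in WT-MP, whereas Flt3 and Zbtb46 had positive log2 fold changes in MP (0.34 and 0.51). Among B-cell markers Cd79b had 17.8 and 16.2 CPM in mCre-MP, against 14.0 and 15.7 CPM in WT-MP, and 19.3 and 14.8 CPM in mCre-TN, against 16.8 and 18 CPM in WT-TN. None of the genes named from these 3 lists passed between genotypes by edgeR. Over all genes, 1.55% to 2.08% were called in each direction between genotypes. The part of these markers in the genotype and subset differences was not tested.

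Between subsets, 9 of the 41 genes were higher and 3 lower in MP than in TN among mCre cells, and 9 were higher and 2 lower among WT cells. Of all genes, 17% were called higher and 15.5% lower in mCre cells, and 16.2% higher and 15.6% lower in WT cells, so the members' counts were close to the background for higher genes and below it for lower genes. With library totals in place of TMM scaling, the counts were 6 higher and 4 lower in mCre cells and 6 higher and 5 lower in WT cells. The median log2 fold change (MP over TN) of the members was 0.04 in mCre and 0.01 in WT cells. Over the 8 libraries, 6 members were higher in every MP library than in every TN library (Vars, Rars, Dars, Qars, Slc1a5 and Cebpb), and 4 were lower in every one (Farsa, Slc3a2, Slc38a2 and Phgdh). Of all tested genes, 16.4% were above and 20.3% below in this way.

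**Figure D4:**
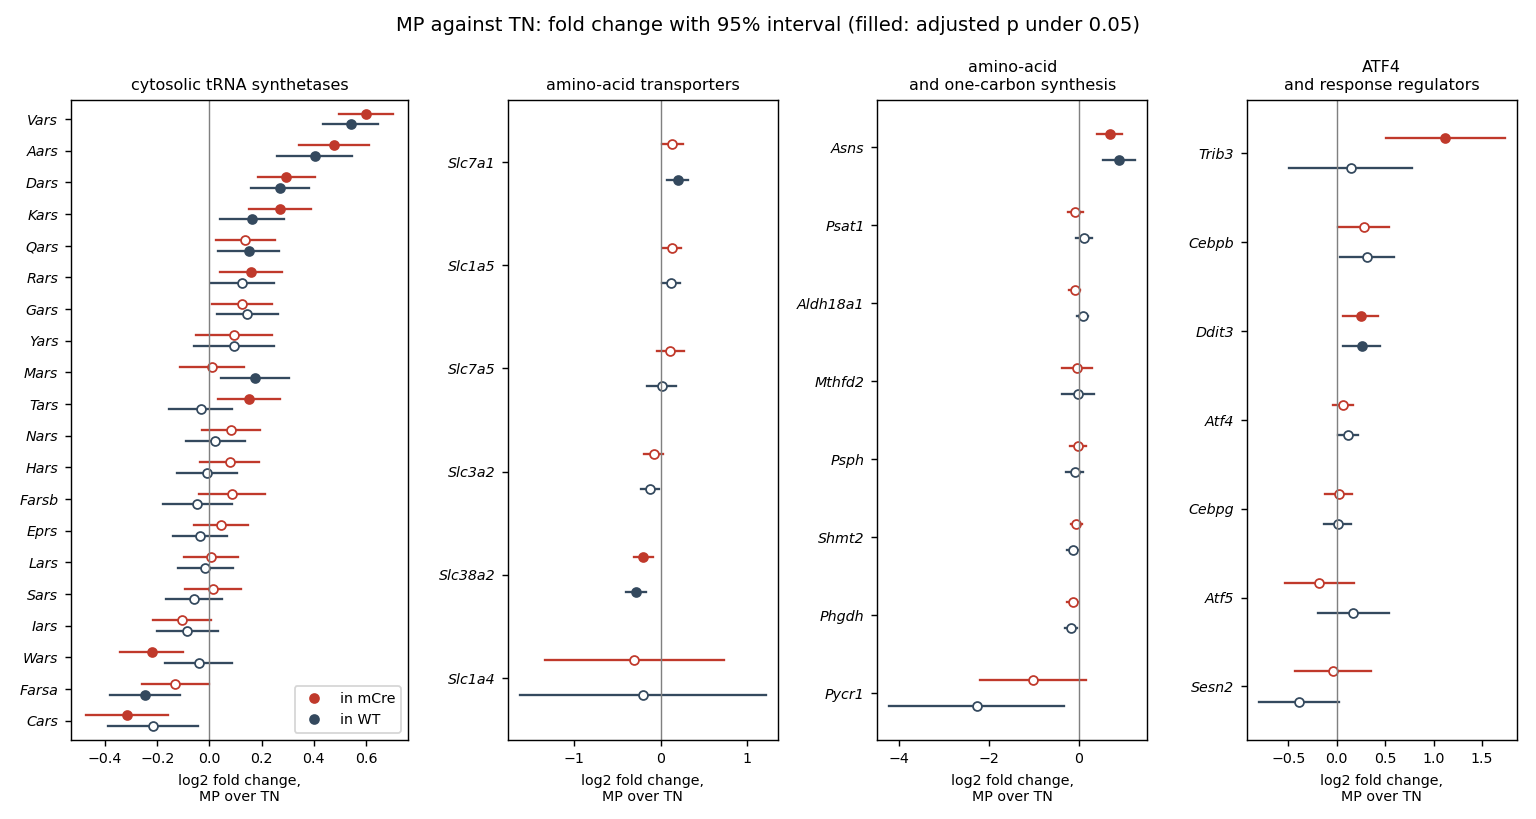
Log2 fold change of MP over TN for the 41 tested genes, by role, in mCre cells (red) and WT cells (dark blue), with 95% intervals from the fit; filled points are genes with an adjusted p under 0.05. Vars, Aars, Dars, Kars, Asns and Ddit3 are filled and above 0 in both genotypes, and Slc38a2 is filled and below 0 in both.

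The valyl-tRNA synthetase gene Vars (chr17:35000987-35016322, plus strand) had the smallest adjusted p among the members in this comparison, although it was not called between genotypes. It had 382.3 and 359.0 CPM in mCre-MP, against 247.4 and 252.9 CPM in mCre-TN, and 328.1 and 335.9 CPM in WT-MP, against 234.8 and 226.4 CPM in WT-TN. The log2 fold change was 0.60 ± 0.05 in mCre (adjusted p = 1.44e-08 by edgeR) and 0.54 ± 0.05 in WT cells (adjusted p = 7.121e-08). Aars, with the values given above, was higher in MP by a log2 fold change of 0.48 in mCre and 0.40 in WT cells (adjusted p = 8.468e-06 and 0.0001382 by edgeR).

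Dars, for aspartate, had 176.8 and 185.3 CPM in mCre-MP, against 146.3 and 155.9 CPM in mCre-TN, and 177.0 and 176.6 CPM in WT-MP, against 146.1 and 150.3 CPM in WT-TN. Kars, for lysine, had 174.4 and 175.3 CPM in mCre-MP, against 143.5 and 153.1 CPM in mCre-TN, and 156.2 and 150.4 CPM in WT-MP, against 131.3 and 145.2 CPM in WT-TN. Both genes were higher in MP in each genotype, Dars by log2 0.30 and 0.27 and Kars by log2 0.27 and 0.16 in mCre and WT cells. The WT call of Kars (adjusted p = 0.03817 by edgeR) was lost under 6 of 16 alternatives, among them DESeq2 and leaving out WT-TN replicate 1, WT-MP replicate 1 or WT-MP replicate 2 (adjusted p up to 0.285).

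Asns was higher in MP by log2 0.69 ± 0.14 in mCre and 0.90 ± 0.17 in WT cells (adjusted p = 0.000638 and 0.0004204 by edgeR), so its level was highest in mCre-MP and lowest in WT-TN. Slc38a2 was lower in MP by log2 fold changes of -0.20 and -0.28 (adjusted p = 0.006971 and 0.0004213 by edgeR), and the mCre call was lost without mCre-MP replicate 1 (adjusted p = 0.05797). Ddit3 was higher in MP by log2 0.25 and 0.26 (adjusted p = 0.03128 and 0.0365 by edgeR), and each of these calls was lost under 6 of 16 alternatives. They included DESeq2 in both genotypes, any 1 of the 4 mCre libraries left out, and WT-TN replicate 1, WT-MP replicate 1 or WT-MP replicate 2 left out (adjusted p up to 0.2157).

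Several members were called between subsets in 1 genotype. In mCre cells Cars and Wars were lower in MP, by log2 fold changes of -0.32 and -0.22 (adjusted p = 0.002816 and 0.005937 by edgeR), against -0.22 and -0.04 in WT cells. Both mCre calls were lost without mCre-TN replicate 2 (adjusted p = 0.05569 and 0.1114). Trib3 was higher in MP among mCre cells by log2 1.12 ± 0.29 (adjusted p = 0.005929 by edgeR), against 0.14 in WT cells, and was no longer called without mCre-TN replicate 1 or mCre-MP replicate 1 (adjusted p = 0.1153 and 0.09324).

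Tars, for threonine, had 93.1 and 94.9 CPM in mCre-MP, against 83.9 and 89.5 CPM in mCre-TN, and 81.2 and 88.2 CPM in WT-MP, against 88.5 and 86.8 CPM in WT-TN. Rars, for arginine, had 90.7 and 94.7 CPM in mCre-MP, against 83.9 and 86.1 CPM in mCre-TN, and 94.2 and 88.7 CPM in WT-MP, against 81.6 and 87.6 CPM in WT-TN. Their mCre differences were small (log2 0.15 and 0.16, adjusted p = 0.04572 and 0.03722 by edgeR). The Tars call was lost under 8 of 16 alternatives and the Rars call under 6, leaving out either mCre-MP replicate or mCre-TN replicate 1 being among them for both (adjusted p up to 0.3227).

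In WT cells Mars, Qars and Slc7a1 were higher in MP by log2 0.17, 0.15 and 0.19 (adjusted p = 0.03821, 0.0451 and 0.01727 by edgeR). Qars, for glutamine, had 178.4 and 177.3 CPM in mCre-MP, against 161.6 and 169.0 CPM in mCre-TN, and 177.6 and 174.4 CPM in WT-MP, against 168.8 and 152.3 CPM in WT-TN. These 3 calls were lost without WT-TN replicate 2 or WT-MP replicate 2 (adjusted p up to 0.3534), and those of Mars and Qars under 6 of 16 alternatives. Farsa, a subunit of the phenylalanine enzyme, had 61.2 and 65.8 CPM in mCre-MP, against 72.4 and 69.9 CPM in mCre-TN, and 58.0 and 62.8 CPM in WT-MP, against 74.7 and 70.5 CPM in WT-TN. It was called lower in WT cells (log2 fold change -0.25, adjusted p = 0.005345 by edgeR) and not in mCre cells (-0.13), and the WT call was lost without WT-TN replicate 1 or WT-MP replicate 1 (adjusted p up to 0.08826). Its partner subunit Farsb was not called.

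The difference between these differences was tested directly. Of all genes, 0.0487% were called higher and 0.0812% lower in the interaction of genotype and subset, and 0 of the 41 members in either direction by edgeR, DESeq2 or limma-voom. At an unadjusted p under 0.05 there were 4 (Wars, Tars, Aldh18a1 and Trib3). A gene called in 1 genotype or 1 subset and not in the other is therefore not shown to differ between them. The genotype and subset comparisons share libraries, so 7 genes called in both kinds (Cars, Wars, Mars, Aars, Slc7a1, Slc38a2 and Asns) are given side by side without a test of their overlap. The 18 tested members with no call in any comparison were Yars, Gars, Eprs, Sars, Hars, Farsb, Slc1a4, Slc1a5, Slc3a2, Mthfd2, Psph, Phgdh, Pycr1, Cebpg, Cebpb, Atf4, Atf5 and Sesn2.

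Other genes of the pathway were read from lists that are not part of the set. Of 20 genes for charging tRNA in mitochondria, 0 were called between genotypes in either subset by edgeR, DESeq2 or limma-voom, with 1 at an unadjusted p under 0.05 in each. Their median log2 fold change was 0.01 in MP and 0.03 in TN, and in MP against TN 2 were higher in mCre cells (Gatb and Wars2, 0.32 and 0.26) and 1 in WT cells by edgeR and limma-voom, and 0 by DESeq2. Of 8 tested scaffold and tRNA-handling genes, 0 were called between genotypes by the same tools, with 1 at an unadjusted p under 0.05 in each subset, and 3 were higher in MP in mCre cells. In WT cells 1 was higher and 1 lower, the lower one not by DESeq2. The scaffold gene Eef1e1 was higher in MP in both genotypes (log2 0.23 and 0.32). Of all genes, edgeR called 17% higher and 15.5% lower in MP in mCre cells, and 16.2% higher and 15.6% lower in WT cells. Between genotypes it called 2.08% higher and 1.97% lower in mCre among MP cells, and 1.55% and 1.92% among TN cells. In lists this short, 0 calls are near that share.

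The share over all genes called between genotypes was 1.55% to 2.08% in each direction. Among 15 genes of eIF2 alpha kinases, phosphatase and eIF2B, 1 was called between genotypes, in both subsets. This was Eif2ak2, the interferon-inducible kinase PKR, with log2 fold changes of 0.50 ± 0.08 in MP and 0.48 ± 0.09 in TN (adjusted p = 0.001061 and 0.003827 by edgeR). It was also higher in MP than in TN (log2 0.64 in mCre and 0.63 in WT cells), as was Impact, an inhibitor of GCN2 signalling (0.41 and 0.51). Of 11 other ATF4 targets tested, 1 was higher in mCre in each subset: Stc2, a secreted glycoprotein, in MP (log2 0.39, adjusted p = 0.02369 by edgeR) and Ddit4, an inhibitor of mTORC1, in TN (log2 0.23, adjusted p = 0.03105). DESeq2 called neither, and limma-voom called 1 in MP and 0 in TN. Between subsets Stc2 was higher in MP by log2 6.17 in mCre and 6.18 in WT cells, and Ddit4 was lower by -0.63 and -0.40.

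Of 14 other amino-acid transporters tested, 0 were called between genotypes by edgeR, DESeq2 or limma-voom, with 2 at an unadjusted p under 0.05 in MP and 3 in TN. In MP against TN, 1 was higher and 4 were lower in each genotype, with Slc43a1, a carrier of large neutral amino acids, higher (log2 1.59 in mCre and 2.76 in WT cells) and Slc16a10, a carrier of aromatic amino acids, lower (-0.93 and -0.84). Of 15 other serine, glycine, folate and methionine genes, only Mthfd1 was called between genotypes, higher in mCre among MP cells (log2 0.23, adjusted p = 0.02894 by edgeR). DESeq2 did not call it. Of 12 proline, glutamine, asparagine and aspartate genes, only Ass1, which joins citrulline and aspartate, was called, lower in mCre among TN cells (log2 fold change -0.28, adjusted p = 0.0157 by edgeR). Of 29 genes of amino-acid sensing by mTORC1, 0 were called between genotypes by the 3 tools, with 7 at an unadjusted p under 0.05 in MP and 3 in TN. Between subsets 7 were higher and 7 lower in mCre cells, and 7 higher and 8 lower in WT cells, by edgeR. DESeq2 called 3 higher and 6 lower in mCre cells and 4 higher and 6 lower in WT cells. Of all genes, edgeR called 15.5% to 17% in each direction of these comparisons. Between genotypes it called 1.55% to 2.08% of all genes in each direction, so few or 0 calls in these lists are near that share. Rptor, the scaffold of mTORC1, was higher in MP (log2 0.90 and 1.05), and the leucine sensor's relative Sesn1 was lower (-0.85 and -0.63).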

How the data were processed

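Whole-number read counts per gene symbol were deposited for 8 libraries of total RNA from sorted CD8+ T cells, prepared with a directional kit per the labels' protocols. Per the submitters' processing notes, Trim Galore, HISAT2 and featureCounts were used on mm10; no source used here gives versions, annotation, strand setting or the treatment of multiply mapped reads. The strand setting bears on members that overlap another gene.

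Testing used edgeR 4.0.16 (R 4.3.3), its quasi-likelihood F test, TMM scaling, robust dispersion and the filter of the same package on low counts, which kept 12313 of 29426 genes. All 8 libraries entered a fit with a mean per group. Tests were two-sided with Benjamini-Hochberg adjustment over all genes tested, with calls at adjusted p under 0.05 whatever the fold. Standard errors and 95% intervals come from the F statistic. Levels are CPM of the plain library total and were not divided by gene length. DESeq2 1.42.0, limma-voom (limma 3.58.1), other scalings and filters, a replicate block and each library left out were alternatives. The procedure was run on simulated counts with the same spread for all genes and with larger changes than many called here. It is therefore no check on the small differences.

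The members, the gene lists and the tests were chosen with earlier results of these data known. Members called in at least 1 comparison were named with all 8 values, and up to 3 called genes with the smallest p were eligible per pathway list; Atf4, Cebpg, Chac1, Mthfd2, Pycr1, Slc1a4 and Slc3a2, and the marker genes named, were given values in addition, after their values had been seen. Positions are 1-based, from GENCODE M21 (GRCm38, the same assembly as mm10). Promoters are from RefSeq on GRCm38.p6, matched by symbol, and for members alone also by synonym through the gene ID. The replicate numbers in the titles were not used to pair libraries. Deviations from the group means of same-numbered libraries correlated at 0.0768 between mCre-TN and mCre-MP and at 0.109 between WT-TN and WT-MP. Between genotypes they correlated at -0.0447 to -0.014. These values do not settle whether same-numbered TN and MP libraries of a genotype came from the same mice. Some items that were measured are not reported here.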

Additional observations from a re-analysis of the deposited data

How the results depend on the processing

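Each count of called members was recomputed under 16 alternatives per comparison (15 for the interaction). Of 46 calls of a member in a comparison, 23 passed under all alternatives, 23 were lost under at least 1, and 0 changed direction. The 8 of 12 calls of mCre against WT in TN that passed throughout compare with 5 of 11 in MP, 5 of 12 for MP against TN in mCre and 5 of 11 in WT. Leaving out 1 library, which leaves a group with a lone library assumed to vary like the other groups, gave 5 to 13 members higher and 0 lower in mCre among MP cells and 8 to 12 higher and 0 to 1 lower among TN cells. The counts in MP were 5 without mCre-MP replicate 1 and 7 without WT-MP replicate 1, and the lower call in TN was lost without mCre-TN replicate 1, mCre-TN replicate 2 or WT-TN replicate 1. For MP against TN the ranges were 5 to 11 higher and 1 to 3 lower in mCre cells, and 4 to 10 higher and 1 to 3 lower in WT cells. The mCre counts were 5 higher without mCre-TN replicate 1 or mCre-MP replicate 1 and 1 lower without mCre-TN replicate 2. The WT counts were 4 higher without WT-MP replicate 2 and 1 lower without WT-TN replicate 1 or WT-MP replicate 1. The interaction stayed at 0. Among WT cells, MP against TN gave 5 lower with library totals only, 5 higher with the DESeq2 test and 4 lower with the stricter filter (5 CPM in at least 2 libraries), against 9 higher and 2 lower. The causes were not tested. With a replicate block the counts were 13 and 0 in MP and 12 and 1 in TN for mCre against WT. For MP against TN they were 9 and 3 in mCre and 10 and 2 in WT. The block moved no count by over 1.5 times. It used the same replicate term for both genotypes and so did not model mice within a genotype. Its counts are given here alone. With 2 libraries per group and 13479586 counts in the shallowest, members with a few counts had wide intervals (Pycr1) or were not tested (Slc7a11 and Chac1).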

Other observations

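Per kilobase of annotated exon, which allows levels of different genes to be set beside each other, Atf4 was the most abundant of the 43 members in all 4 groups, at 90.1 CPM per kilobase in mCre-MP against 91.2 in WT-MP and 88.2 in mCre-TN against 84.8 in WT-TN. Among the synthetases Vars was highest in MP cells (66.1 CPM per kilobase in mCre-MP and 59.2 in WT-MP), and Gars, for glycine, was highest in TN cells (49.2 in mCre-TN and 45.1 in WT-TN). The lowest synthetase levels were those of Cars, at 6.13 CPM per kilobase in mCre-MP against 4.21 in WT-MP and 7.82 in mCre-TN against 4.94 in WT-TN, and of Aars, at 10.1 in mCre-MP against 7.18 in WT-MP and 7.40 in mCre-TN against 5.48 in WT-TN. Asns was at 6.94 CPM per kilobase in mCre-MP against 3.31 in WT-MP and 4.43 in mCre-TN against 1.77 in WT-TN. These lengths join the exons of all annotated transcripts, so genes with long rare transcripts come out low.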
